A study of Mus musculus with 12 samples.

Results

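Compact acetylated regions closed in proerythroblasts are stretches of fetal liver chromatin that carried H3K27ac over less than 8 kb, met no H3K4me3 region and held no accessible site called in red cell precursors. They were chosen from consensus regions, meaning merged stretches of a group's peaks that hold a peak of every library of that group. A member is a consensus H3K27ac region under 8 kb that shares no base with a consensus H3K4me3 region or with a peak of either proerythroblast ATAC library. The rule found 5437 members among 18238 consensus H3K27ac regions, or 29.8% (exact Clopper-Pearson 95% interval 29.1 to 30.5), and they held 10.4 Mb, 16.7% of the consensus H3K27ac sequence. Of the 9233 consensus H3K27ac regions without H3K4me3, 8842 were under 8 kb. The 3405 of these that met an ATAC peak are called open below, and serve as the comparison.

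All samples came from C57BL/6 mouse embryos at embryonic day 14.5, with no treatment or allele named in the labels. Chromatin of whole fetal liver was profiled by ChIP-seq, with 2 H3K27ac libraries, 3 of H3K4me1, 2 of H3K4me2 and 2 of H3K4me3. Proerythroblasts, the earliest morphologically recognisable red cell precursors, were profiled by ATAC-seq in 2 libraries. For H3K4me2 the labels name antibodies of different suppliers in different fields, so every H3K4me2 value rests on an antibody that is not settled. The lists hold no read counts, so depth is unknown, and closed means here that no ATAC peak was called. ATAC replicate 1 had 18441 peaks and replicate 2 had 28980.

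H3K27ac is placed on histones by the p300 and CBP acetyltransferases and marks active enhancers and promoters. H3K4me1 is typical of enhancers, H3K4me3 of active promoters, and H3K4me2 of both. A regulatory element in use is usually open to a transposase, which is what ATAC-seq reads. The fetal liver at this stage makes red cells but also holds hepatoblasts, macrophages, megakaryocytes, endothelial and mesenchymal cells, so a mark read in whole liver can come from cells other than proerythroblasts. In whole tissue, a mark carried by fewer cells and a weaker mark in every cell cannot be told apart.

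Closed regions were narrow and their acetylation calls were weak. Their widths ran from 227 to 7970 bp with a median of 1553 bp, against a median of 2656 bp in open regions. The authors' H3K27ac fold enrichment, taken from the best peak in each region, had a median of 2.80 in replicate 1 and 2.65 in replicate 2, against 3.11 and 2.95 in open regions. The −log10 q of the best H3K27ac peak had a median of 2.00 and 1.84 in closed regions, where the lists start just above 1, and 3.56 and 3.50 in open regions. H3K27ac peaks chose the members, so these values are a description. Each H3K27ac library called a single peak in 4952 members (91.1%), close to the 3036 open regions (89.2%) where each did. The 2 libraries agreed less on the extent of closed regions than of open ones, with 0.493 of the bases under either library shared in closed regions and 0.710 in open ones. Across members, which are not independent replicates, the fold enrichments of the 2 libraries had a Spearman correlation of 0.534, against 0.870 across open regions. The mean fold enrichment spread less across members (quartiles 2.60 and 2.91) than across open regions (2.71 and 3.51). The part of this narrower range in the lower correlation was not tested.

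Stretches called in only 1 H3K27ac library lie just outside the rule. Replicate 1 alone had 8523 such stretches that otherwise met it, with a median fold enrichment of 2.64 and a median −log10 q of 1.52. Replicate 2 alone had 3200, with medians of 2.54 and 1.43. At the width limit, the 3 members nearest below 8 kb measured 7970, 7943 and 7896 bp and had mean H3K27ac fold enrichments of 3.46, 3.43 and 3.09. The 3 otherwise fitting regions nearest above it measured 8021, 8090 and 8124 bp, with 2.87, 3.05 and 3.57. At the ATAC limit, 185 members (3.40%) had an ATAC peak within 1 kb of an edge. Of the open regions, 1872 were open through replicate 2 alone, 51 through replicate 1 alone and 1482 through both.

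Closed regions carried both H3K4me1 and H3K4me2 less often than open ones. With the lists as deposited the gap was wider for H3K4me2, an order that turned when stricter peaks were asked of every list. Neither mark entered the rule. A peak of H3K4me1 replicate 1 lay on 79.5% of members, of replicate 2 on 72.6% and of replicate 3 on 75.9%. In open regions these shares were 99.3%, 97.9% and 98.7%. H3K4me2 replicate 1 met 50.5% of members and replicate 2 met 58.0%, against 96.5% and 97.1% of open regions. The closed regions were lower in every library, and the highest closed share was below the lowest open one. The mean difference was −22.6 percentage points ± 2.73 (SD, n = 3) for H3K4me1, lower in 3 of 3 libraries, with p = 0.25 in a two-sided exact permutation test that flips signs within libraries. For H3K4me2 it was −42.5 points ± 4.85 (SD, n = 2), lower in 2 of 2 libraries, with an exact p of 0.5. These are the smallest p-values that 3 and 2 libraries allow, so neither can reach 0.05, and after Benjamini-Hochberg adjustment over 18 differences both are 0.5.

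Both the number of members and the gaps moved with the acetylation lists used. With H3K27ac replicate 2 alone 10489 regions met the rule, and with replicate 1 alone 14637, since peaks of a single library then count. With replicate 1 alone the H3K4me1 gap was −43.4 points and the H3K4me2 gap −61.7, and peaks of every H3K4me2 library lay on 30.2% of the regions in place of 49.5%, those of every H3K4me1 library on 44.8% in place of 68.0%. With a −log10 q of at least 5 asked of every list, 123 regions met the rule and the gaps were −16.4 points for H3K4me1 and −8.39 for H3K4me2, so that the wider gap was then that of H3K4me1. Asked of every list, the limit also removed H3K4me1 and H3K4me2 peaks, and the mean H3K4me1 share of open regions was 82.8% in place of 98.6%. With that limit on the H3K27ac lists alone, 84 regions met the rule and the gaps were −1.01 and −1.20 points, which rested on very few regions.

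**Figure D1:**
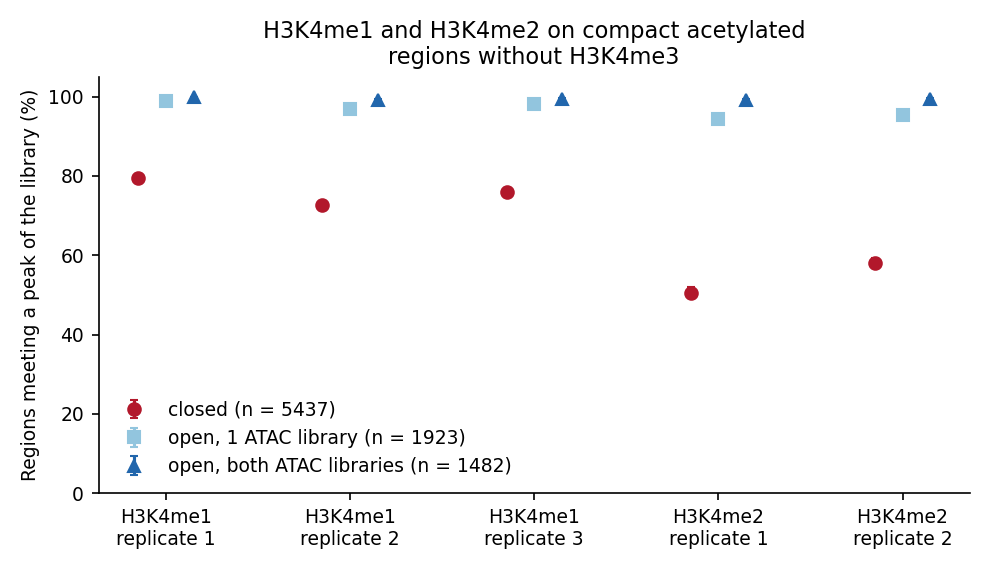
Share of compact acetylated regions without H3K4me3 that met a peak of each H3K4me1 and H3K4me2 library (percent, vertical axis), for closed regions (circles), regions open in 1 ATAC library (squares) and regions open in both (triangles). Bars are exact 95% intervals over regions, mostly smaller than the symbols; the closed regions sit lowest in all 5 libraries, between 50.5% and 79.5%.

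In their H3K4me1 and H3K4me2 shares, open regions seen in only 1 ATAC library were closer to those seen in both than to closed regions. Among the 1923 regions open in 1 library, H3K4me1 averaged 98.0% ± 1.00 (SD, n = 3) and H3K4me2 94.9% ± 0.625 (SD, n = 2). Among the 1482 open in both, the means were 99.4% ± 0.346 and 99.2% ± 0.143. Closed regions, at 76.0% ± 3.43 and 54.3% ± 5.27, stood apart from both kinds by more than the spread of the libraries. For both marks the means of the 2 kinds of open region also differed from each other by more than the SD of either kind.

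Where a closed region did carry a peak, the H3K4me2 peak was also weaker than in open regions. Median H3K4me2 fold enrichment at the marked members was 3.49 in replicate 1 and 3.32 in replicate 2, against 4.60 and 4.20 at the marked open regions. For H3K4me1 the medians were 3.27, 2.88 and 2.96 in closed regions and 3.71, 3.04 and 3.23 in open ones. The difference was −0.993 ± 0.168 (SD, n = 2) for H3K4me2 and −0.288 ± 0.139 (SD, n = 3) for H3K4me1, lower in every library, with the same smallest exact p-values of 0.5 and 0.25. These values take the highest peak that meets each region, and open regions were wider with stronger acetylation calls. The comparison was not weighted for width or call strength. By length, H3K4me1 took 65.2%, 55.4% and 59.9% of the bases of members and H3K4me2 took 27.9% and 37.1%. In open regions H3K4me1 took 88.8%, 81.3% and 85.1% and H3K4me2 took 57.3% and 68.6%.

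Nearly as many members carried both marks in every library as did not, and a smaller group carried neither mark. A peak of every H3K4me1 library lay on 3695 members (68.0%), where 87.6% of all consensus H3K27ac regions had one. A peak of every H3K4me2 library lay on 2691 (49.5%), against 84.0% of all consensus H3K27ac regions. All 5 libraries met at 2607 members (47.9%, interval 46.6 to 49.3), against 81.1% overall. No peak of any of the 5 lay on 875 members (16.1%, interval 15.1 to 17.1), against 4.89% overall and 14 of the 3405 open regions. Of the 891 consensus H3K27ac regions without any of these peaks, 875 were members.

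H3K4me1 without H3K4me2 was far more frequent than the reverse. A peak of every H3K4me1 library and none of H3K4me2 was found on 634 members (11.7%), against 3.75% of all consensus H3K27ac regions. A peak of every H3K4me2 library and none of H3K4me1 was found on 9 members (0.166%), against 0.313% overall. A further 353 members (6.49%) had no H3K4me2 peak and a peak of 1 H3K4me1 library, and 365 (6.71%) had none and a peak of 2. In reverse, 6 members (0.110%) had no H3K4me1 peak and a peak of 1 H3K4me2 library. For these partial classes the share over all consensus H3K27ac regions was not taken.

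Fully marked and unmarked members differed in size, strength and place. Fully marked members had a median width of 1735 bp, unmarked ones 1298 bp. The median −log10 q of H3K27ac was 2.22 and 2.11 in the 2 libraries for the fully marked members, and 1.74 and 1.56 for the unmarked ones. Fully marked members lay a median of 12.7 kb from a consensus H3K4me3 region and 6.83 kb from an ATAC peak. Unmarked members lay farther from both, at 25.3 and 12.8 kb. These medians describe the groups and have no test, as regions of one genome are not replicates.

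The shares of H3K4me1 and H3K4me2 on closed regions climbed with the strength of the acetylation call. Regions were binned by the lower of the 2 libraries' best H3K27ac −log10 q. Of 2032 members under 1.5, H3K4me1 met 64.4% ± 3.69 (SD, n = 3) and H3K4me2 39.2% ± 5.50 (SD, n = 2). Of 1898 members from 1.5 to 2 the means were 77.4% ± 4.38 and 52.7% ± 6.18. Of 1086 from 2 to 3 they were 87.9% ± 2.12 and 71.1% ± 4.49, and of 338 from 3 to 5 they were 94.6% ± 1.78 and 88.6% ± 2.30. The 83 members at 5 or more had H3K4me1 on 98.8% in each library and H3K4me2 on 98.2% ± 0.852. None of these 83 lacked both marks, whereas 25.6% of those under 1.5 did.

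Open regions varied less across the same bins. Their H3K4me1 share went from 95.9% ± 1.37 under 1.5 to 99.8% ± 0.222 at 5 or more, and their H3K4me2 share from 91.4% to 99.4% ± 0.226. The difference between closed and open regions shrank from −31.5 points ± 2.33 to −1.03 ± 0.222 for H3K4me1, and from −52.2 ± 5.50 to −1.22 ± 0.626 for H3K4me2. It was negative in every library and every bin. At 5 or more that sign rested on very few of the 83 members, as 98.8% of them met a peak in each H3K4me1 library. With open regions weighted to the closed regions' widths and H3K27ac fold enrichment, the differences over all bins were −21.4 points for H3K4me1 and −40.9 for H3K4me2. A weighting to width and H3K27ac −log10 q, added after the values were seen, gave −20.6 ± 2.06 and −38.9 ± 4.91. The share of compact regions without H3K4me3 that were closed ran the other way, from 87.5% under 1.5 to 79.1%, 55.5%, 29.6% and 8.14% at 5 or more. The bins were set after the values were seen, and the part of call strength in the gaps was not tested beyond these values.

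**Figure D2:**
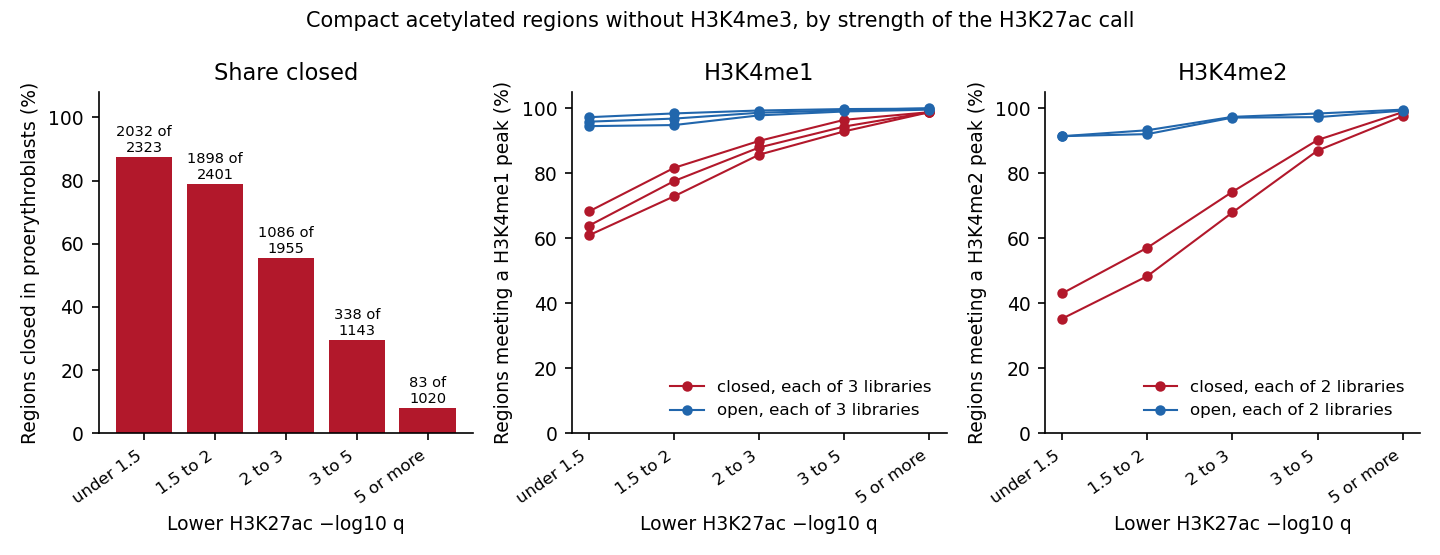
Compact acetylated regions without H3K4me3 in bins of the lower H3K27ac −log10 q of the 2 libraries (horizontal axes). Bars give the percent closed in proerythroblasts, which falls from 87.5% to 8.14%; lines give the percent with an H3K4me1 peak or an H3K4me2 peak in each library, with closed regions (red) climbing toward the open ones (blue) until they nearly meet at 5 or more.

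The shares also climbed with width. Members under 1 kb met H3K4me1 in 67.4% ± 4.32 of cases (SD, n = 3) and H3K4me2 in 45.4% ± 4.93 (SD, n = 2). Members of 4 to 8 kb met them in 87.8% ± 2.60 and 67.7% ± 4.51. Open regions of those widths had 95.3% ± 1.70 and 94.6% ± 0.218, then 99.6% ± 0.184 and 98.5% ± 0.525. Closed regions made up 80.9% of the compact regions under 1 kb and 31.0% of those of 4 to 8 kb, so wider regions were more often open.

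H3K4me1 and H3K4me2, which the rule did not use, covered the centres of members more often than their flanks. The H3K27ac profile inside a member and its drop just outside are fixed by the rule and are given for scale. At the centre of members an H3K27ac peak covered 82.5% ± 9.70 (SD, n = 2), H3K4me1 64.0% ± 4.61 (n = 3) and H3K4me2 38.6% ± 6.24 (n = 2). At 2 kb from the centre these had dropped to 15.2% ± 1.93, 31.1% ± 4.75 and 13.3% ± 3.55. H3K27ac cover was 25.5% ± 3.67 at 5 kb. Around regions open in both ATAC libraries it was 11.4% ± 1.67 at 5 kb, after 96.4% ± 2.19 at the centre. H3K4me2 likewise stood at 19.6% ± 2.93 at 5 kb from closed centres and 12.2% ± 2.08 at 5 kb from open ones. ATAC peaks, at 0 in the centre by the rule, covered 2.59% ± 0.735 of positions 5 kb from closed centres.

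**Figure D3:**
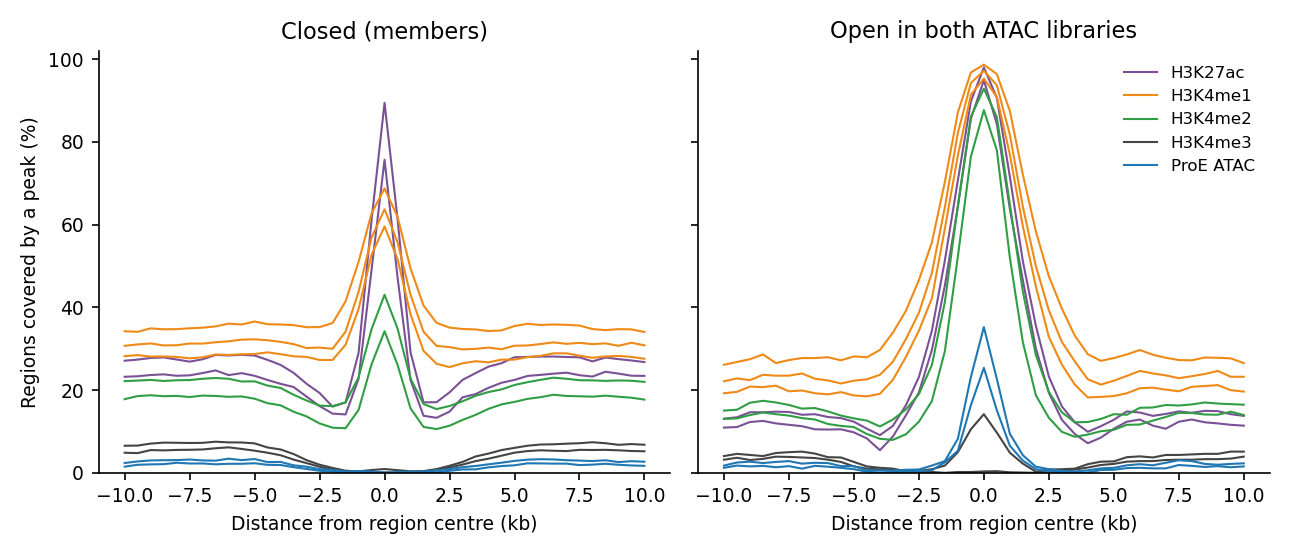
Percent of regions covered by a peak of each library (1 line per library, coloured by mark) at distances up to 10 kb from the region's centre, for the closed members on the left and regions open in both ATAC libraries on the right. H3K4me1 around members goes from 64.0% at the centre to 31.1% at 2 kb; the H3K27ac drop beside the centre follows from the choice of regions.

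Other acetylated regions lay closer to members than to open regions. The gap to the nearest other consensus H3K27ac region had a median of 2.90 kb for members (quartiles 1.21 and 8.70 kb) and 7.50 kb for open regions (quartiles 2.29 and 24.2 kb). Another acetylated region lay within 5 kb of 3454 members (63.5%), against 44.0% of all consensus H3K27ac regions and 40.1% of open ones. The nearest one was itself a closed compact region for 2274 members (41.8%), where 32.7% of all consensus H3K27ac regions had such a neighbour. For 1390 members (25.6%) it was a compact region with H3K4me3, against 35.7% of open regions. For 959 members (17.6%) it was an open region, against 24.0% of open regions. A wide acetylated region, of 8 kb or more, lay within 5 kb of 942 members (17.3%) and of 203 open regions (5.96%). These positions are descriptions without a test.

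**Figure D4:**
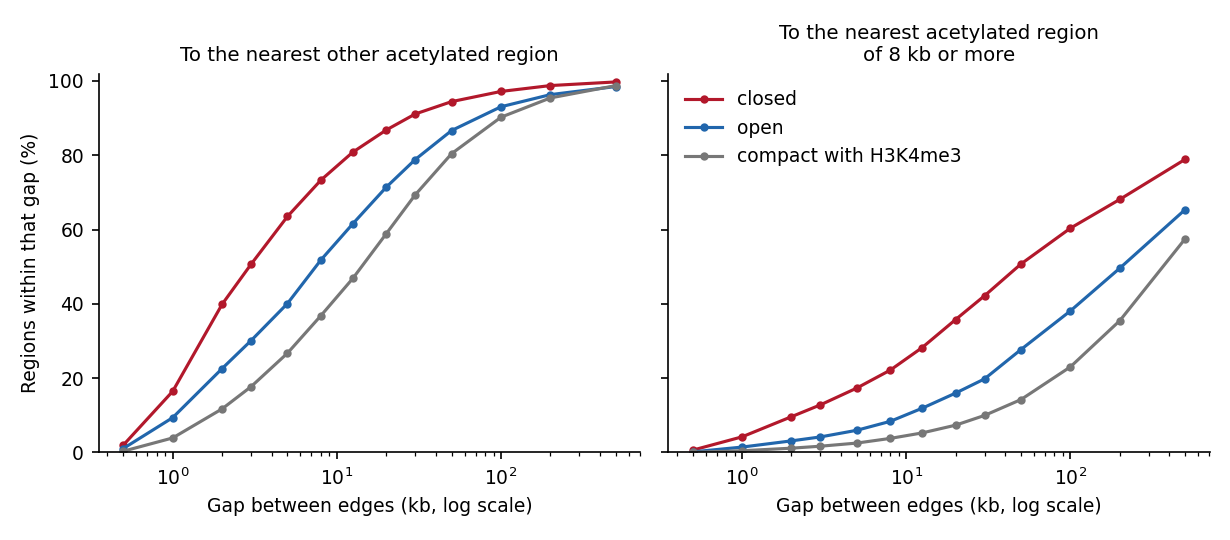
Percent of regions whose nearest other consensus H3K27ac region (left) or nearest H3K27ac region of 8 kb or more (right) lies within the gap on the horizontal axis (kb, log scale), for closed, open and H3K4me3-bearing compact regions. The closed curve is the highest at 5 kb in both panels, at 63.5% and 17.3%, against 40.1% and 5.96% for open regions.

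H3K4me3 and ATAC peaks lay at some distance from most members. The nearest consensus H3K4me3 region lay a median of 15.9 kb from members (quartiles 6.35 and 35.5 kb) and 20.3 kb from open regions (quartiles 8.47 and 48.0 kb). The nearest ATAC peak of either library was a median of 8.02 kb away (quartiles 4.12 and 16.8 kb). Only 271 members (4.98%) lay more than 50 kb from any ATAC peak. Absence of both features inside the region is part of the rule, so the distances are descriptions. A peak of a single H3K4me3 library, which the rule allows, lay on 125 members for replicate 2 (2.30%) and on 12 for replicate 1. Of the open regions, such peaks lay on 740 for replicate 2 (21.7%) and on 41 for replicate 1.

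Some members shared a wider H3K4me1 region with an open site. Of the members, 3900 (71.7%) met a consensus H3K4me1 region, against 97.6% of open regions, and the widest one they met had a median width of 4917 bp, against 4907 bp for open regions. Of these 3900 members, 2578 (66.1%) lay wholly inside such a region, against 67.8% of the 3324 open regions that met one. The shares that follow are also of the 3900 members. An ATAC peak lay elsewhere in the same H3K4me1 region for 1371 (35.2%), and a consensus H3K4me3 region for 1032 (26.5%), against 414 of the 3324 open regions that met one. Open regions hold ATAC peaks by definition, so the ATAC share has no counterpart in them. These groups overlap, and 2371 of the 3900 (60.8%) met H3K4me1 regions that held neither.

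On 18 of the 19 autosomes the share of compact regions without H3K4me3 that were closed ran from 55.1% to 65.7%. Chromosome 13 was above that range, at 379 of 553 regions or 68.5% (95% interval 64.5 to 72.4). The X chromosome was lowest, at 77 of 161 or 47.8% (39.9 to 55.8), an interval that lies below the 61.5% of all such regions. The intervals cover counting error only and no test was made.

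Runs of neighbouring members were more frequent than runs of open regions. A chain was a run of members with gaps of at most 25 kb and no other consensus H3K27ac region between them. Of the members, 2869 (52.8%) stood in chains of 2 or more, and 553 (10.2%) in the 92 chains of 5 or more. By the same definition 24.2% of open regions stood in runs of 2 or more open regions, with none longer than 4. Of compact regions with H3K4me3, 37.3% stood in runs of 2 or more of their own kind. These regions also formed 55 runs of 5 or more, which held 4.12% of them, and their longest run had 11. The classes differ in number, at 5437, 3405 and 7944 regions, and the part of number in these shares was not tested. Unmarked members were in chains of 5 or more in 22.1% of cases, fully marked ones in 4.56% and those with H3K4me1 alone in 12.0%. In 29 of these 92 chains at least 50% of the members had no H3K4me1 or H3K4me2 peak.

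The longest chain was an acetylated tract almost without H3K4 methylation, on chromosome 12 from 90080752 to 90201129 (mm9, 120.378 kb). Its 16 members measured 445 to 5256 bp. Their H3K27ac fold enrichment ran from 2.57 to 3.50 in replicate 1 (median 2.89) and from 2.45 to 3.03 in replicate 2 (median 2.66). H3K27ac peaks covered 28.7% and 25.8% of the tract in the 2 libraries. H3K4me1 met 1, 2 and 0 of the 16 members in replicates 1 to 3, and H3K4me2 met none in either library. The next acetylated region, 11.12 kb wide, began 3.757 kb past its end and also held no ATAC peak, and the nearest H3K4me3 region and ATAC peak were 20.9 and 21.2 kb away.

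**Figure D5:**
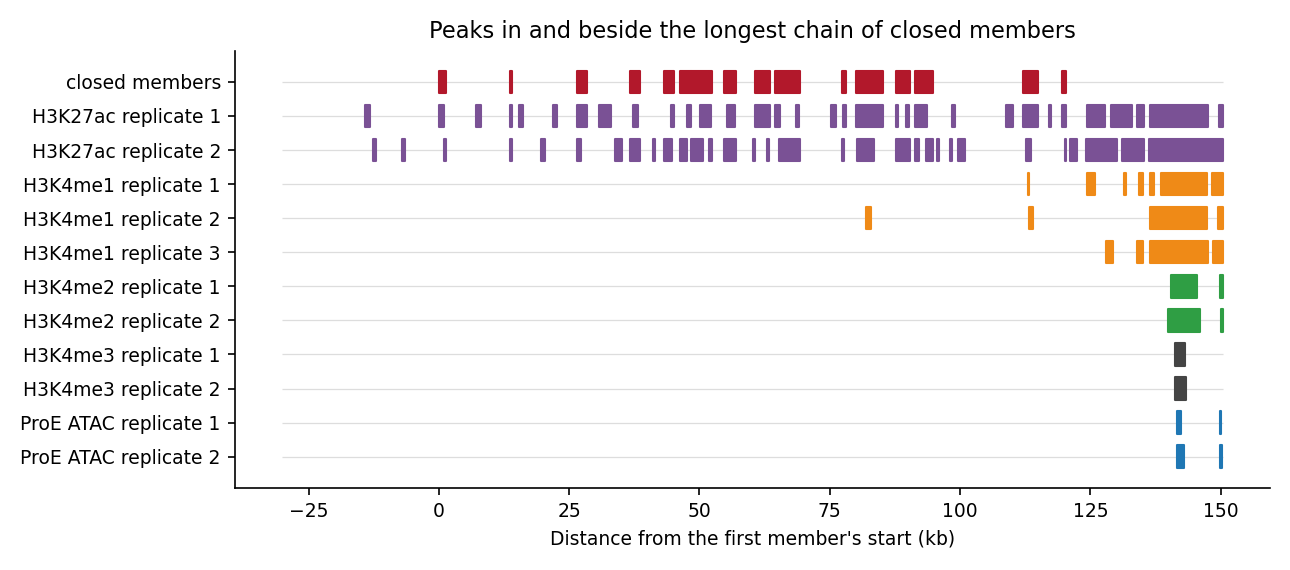
Peaks of each library in and beside the longest chain of members, drawn to scale as distance from the first member's start (kb), with 30 kb added on each side. Acetylated members are scattered over 120.378 kb in which H3K4me2, H3K4me3 and ATAC have no peak, while all marks and ATAC peaks appear together past its right end.

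The other long chains differed in how far they were methylated. Chromosome 11 from 30919820 to 31000338 held 11 members over 80.519 kb, of which H3K4me1 met 2, 1 and 1, H3K4me2 met none, and 9 had no peak of either mark. An ATAC peak lay 1.90 kb from its nearest member. Chromosome 1 from 89755516 to 89821855 held 9 members over 66.34 kb, and there H3K4me1 met 6, 7 and 7 and H3K4me2 met 3 and 5. Median H3K27ac fold enrichment was 2.83 and 2.85 in the first of these and 2.79 and 2.61 in the second, while their methylation counts differed. The other 2 chains of 9 members are not described, as the one named comes first in genome order.

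The 10 most strongly acetylated members had peaks of every H3K4me1 and H3K4me2 library, and their distance to an ATAC peak ran from 0.148 to 199.879 kb. The strongest, on chromosome 9 from 68933323 to 68937722 (4400 bp), had H3K27ac fold enrichments of 6.40 and 5.45. Its H3K4me1 peaks had 4.56, 3.35 and 3.69 and its H3K4me2 peaks 5.03 and 4.43. The nearest ATAC peak was 199.879 kb away and the nearest H3K4me3 region 199.32 kb. Another acetylated region lay 0.964 kb away.

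The next members in strength shared that make-up. Chromosome 13 from 98463844 to 98470475 had H3K27ac fold enrichments of 5.32 and 5.59, and its ATAC gap was 42.7 kb. Chromosome 16 from 58624485 to 58631190 had 5.39 and 5.05 and chromosome 14 from 54383541 to 54386932 had 4.88 and 4.56. The H3K4me3 gap of the latter was 460.122 kb. In these regions the 2 libraries gave similar values.

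Some of the 10 strongest rested on libraries that disagreed or lay beside an open site. Chromosome 11 from 101518634 to 101519539 was only 906 bp wide, had 5.72 in replicate 1 and 3.79 in replicate 2, and lay 0.148 kb from an ATAC peak. Chromosome X from 91689066 to 91691610 had 3.72 and 5.52. Neither was so for chromosome 1 from 134295130 to 134299902, with 4.79 and 4.58 and an ATAC gap of 6.63 kb. It had H3K4me1 of 7.44, 4.81 and 5.97 and H3K4me2 of 7.69 and 8.41. These methylation values were the highest of the 10 in every library but H3K4me1 replicate 2, where the region on chromosome 16 had 4.97.

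The remaining 3 were alike in both libraries. They lay on chromosome 14 from 31890695 to 31896938 (4.92 and 4.49), on chromosome 13 from 20253729 to 20258537 (5.01 and 4.31) and on chromosome 3 from 22217454 to 22220057 (4.75 and 4.31). Their ATAC gaps were 14.8, 11.3 and 9.31 kb.

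In replicate 1 of each mark, the 5 widest members were covered by H3K4me1 over most of their length and by H3K4me2 over much less. On chromosome 17 from 12383004 to 12390973 (7970 bp), H3K4me1 replicate 1 took 100% of the length and H3K4me2 replicate 1 took 18.4%. On chromosome 9 from 14189882 to 14197824 these were 82.3% and 23.0%, and on chromosome 13 from 83468164 to 83476059 they were 59.9% and 7.00%. The other 2, on chromosome 9 from 50748865 to 50756705 and from 48189748 to 48197567, had 97.7% and 11.4%, then 59.9% and no H3K4me2 peak in replicate 1. Each of the 5 lay within 2 kb of another acetylated region, at 0.565 to 1.855 kb.

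Of the 5 members farthest from any ATAC peak, 4 carried peaks of all 5 methylation libraries. Chromosome 5 from 83374462 to 83377170 was 1468.93 kb from the nearest ATAC peak and 3114.97 kb from the nearest other acetylated region. It had H3K27ac fold enrichments of 4.12 and 3.43, H3K4me1 of 3.38, 3.04 and 2.91 and H3K4me2 of 5.14 and 3.55. Chromosome 11 from 37225599 to 37227803 was 1131.25 kb from an ATAC peak, with H3K27ac of 3.84 and 3.99 and peaks in all 5 methylation libraries. The other 3 were narrow and grouped on chromosome 14 from 44604266 to 44616455. They measured 801, 372 and 472 bp, lay from 991.715 to 1003.1 kb from an ATAC peak, and the second had no peak in H3K4me1 replicate 3.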

How the data were processed

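Per the submitters' processing notes, the reads were trimmed, aligned and called into peaks with tools that include Trimmomatic 0.32, Bowtie 1.0.1, SAMtools and MACS2, on mm9; the peak caller's version, settings and control were not stated. The authors deposited 11 peak lists, 1 per library, each with a fold enrichment (a ratio), −log10 p and −log10 q values and a score, which was not used. The protocol text of the ATAC samples describes ChIP, so cell isolation and transposition are unknown. The input sample entered no comparison.

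Only chromosomes 1 to 19, X and Y were kept (7 mitochondrial peaks were set aside), touching peaks were merged, and overlap meant at least 1 bp. A region's value is that of its highest overlapping peak, and gaps run between edges. Closed and open regions were compared within each library by two-sided exact sign-flip permutation, with code tested on simulated data (Python 3.11.15, pandas 2.3.3, scipy 1.17.1). Intervals are exact 95% Clopper-Pearson and cover counting error only. No label says that libraries came from separate animals, so the p-values concern these libraries only. Where every library differs in the same direction, the exact p-value depends on the number of libraries and not on their spread.

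Members, comparisons and lists were chosen with earlier results of these data known. Named regions are the 10 members of highest mean fold enrichment, the 5 widest, the 5 farthest from ATAC, the 3 chains with most members and 3 regions on each side of 8 kb. No mm9 genome or gene annotation was used here, so regions are given by position, counted from 1, and the planned motif, gene position and cell type marker comparisons were not made.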

Additional observations from a re-analysis of the deposited data

How the results depend on the processing

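Both gaps between closed and open regions kept their sign under every alternative run, while their order turned with stricter peaks in every list (−16.4 points for H3K4me1, −8.39 for H3K4me2), and no test here could pass 0.05, so this says nothing of significance. Leaving out 1 library at a time gave from 5314 to 14637 members, H3K4me1 gaps from −43.4 to −17.6 points, H3K4me2 gaps from −61.7 to −34.3 points, and shares from 44.8% to 75.3% for every H3K4me1 library and from 30.2% to 60.8% for every H3K4me2 library. A −log10 q of at least 5 in every list left 123 members, 44.7% with every H3K4me1 library and 83.7% with every H3K4me2 library. The same limit on the H3K27ac lists alone left 84, with 98.8% and 97.6%, so its gaps rested on very few regions. Equal numbers of ATAC peaks per library gave 72.7% and 56.6%. Members away from wide acetylated regions had every H3K4me2 library in 54.8% of cases. These last 3 alternatives and the weighting by −log10 q were chosen after seeing the data. Fewer lists or stricter ones change which regions are members, and a limit on every list also removes H3K4me1 and H3K4me2 peaks. Beyond that, the cause of the shifts was not tested. No paired analysis was possible because no test compares groups of libraries, so replicate numbers have nothing to pair; the closed minus open differences are already taken within each library. Some titles of different marks share a code that the labels do not explain, and it was not used. The planned sequence, gene position and marker comparisons were not run.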
